A study of Mus musculus with 12 samples.

Results

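The 43 genes described here encode the contractile filaments, the Z-disc, the calcium handling machinery and the energy metabolism of skeletal muscle fibres. They were taken by gene symbol, with no threshold on their counts, and all 43 were found among the 22609 gene symbols of the count data. By role they comprised 11 genes of the thick filament, 8 of the thin filament, 9 of titin, the Z-disc and the intermediate filaments, 7 of excitation-contraction coupling, 7 of metabolism and 1 muscle regulator, Smyd1.

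In C57BL/6J mice, RNA-seq was made of whole dorsal root ganglia (DRG) and of the hind paw in 12 libraries, 3 from males and 3 from females for each tissue. By the labels every mouse was 8 to 14 weeks old and had 20 µl of saline injected into the paw, whereas the methods call the mice naïve, place the females in the estrous phase and give a narrower age range. Lumbar DRG of both sides were dissected after perfusion, and the hind paw was sampled with a biopsy punch which, by the methods, took epidermis, dermis and some fat without touching muscle. No genetic change or drug is named for any group, and the comparisons were hind paw against DRG and, within each tissue, females against males.

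The libraries held 6866545 to 13470783 reads on genes. Male hind paw library 2 had the fewest, where the listed reads were 13.6% genic and 55.5% not uniquely placed, while 23.8% to 28.1% of the listed reads were on genes in the other 11 libraries. The labels separate the libraries by tissue, sex and number but do not tie each to its own mouse, so a p-value measures the spread between these libraries. Levels are given as normalised CPM (reads brought to a common library size by median-of-ratios scaling over the 12 libraries), and levels of different genes are compared only as RPKM, which divides by the length of the exons.

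Skeletal muscle contracts when myosin heads of the thick filament pull on actin of the thin filament, a step that calcium permits by binding troponin. Fibres are slow or fast according to the myosin heavy chain they carry: Myh7 marks slow type I fibres, and Myh2, Myh1 and Myh4 mark fast types IIA, IIX and IIB, with troponin subunits, light chains and calcium pumps that also come in fast and slow forms. Neither skin nor sensory ganglia are made of such fibres, but thin muscles lie under the skin of the paw and large muscles surround the vertebrae next to the ganglia.

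Many muscle promoters hold binding motifs of myogenic factors, so the bases around the start sites of 7 members are shown, chosen because they stand for the patterns in the counts. Acta1 and Ckm followed the bulk of the members, Myh1 and Myh4 changed places as the leading heavy chain, Myh7 and Tnnc1 are slow forms, and Casq2 was among the least variable members. The promoters come from RefSeq on build GRCm38.p6, from 250 bases before to 50 after the start of the gene, and 33 of the 43 members were matched. Acta1 lies on the minus strand at chr8:123894726-123895025 and Myh7 on the minus strand at chr14:54994577-54994876. The other promoters are on the plus strand, Ckm at chr7:19410844-19411143, Myh1 at chr11:67199852-67200151, Myh4 at chr11:67237562-67237861, Tnnc1 at chr14:31208062-31208361 and Casq2 at chr3:102086165-102086464. Capitals mark the E-box CAGCTG, the MEF2 site and the CArG box on either strand, and TATAAA on the strand of the gene.
Acta1: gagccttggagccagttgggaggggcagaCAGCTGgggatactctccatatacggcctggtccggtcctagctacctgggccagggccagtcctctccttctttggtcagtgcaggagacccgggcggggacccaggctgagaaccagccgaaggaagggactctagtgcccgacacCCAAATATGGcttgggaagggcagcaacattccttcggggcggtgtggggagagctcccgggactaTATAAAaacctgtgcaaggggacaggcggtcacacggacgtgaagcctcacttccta
Ckm: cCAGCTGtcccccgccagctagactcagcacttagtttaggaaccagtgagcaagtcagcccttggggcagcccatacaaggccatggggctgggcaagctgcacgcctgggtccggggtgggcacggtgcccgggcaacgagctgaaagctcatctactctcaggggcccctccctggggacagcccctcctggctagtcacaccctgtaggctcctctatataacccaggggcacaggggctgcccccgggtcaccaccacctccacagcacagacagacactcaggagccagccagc
Myh1: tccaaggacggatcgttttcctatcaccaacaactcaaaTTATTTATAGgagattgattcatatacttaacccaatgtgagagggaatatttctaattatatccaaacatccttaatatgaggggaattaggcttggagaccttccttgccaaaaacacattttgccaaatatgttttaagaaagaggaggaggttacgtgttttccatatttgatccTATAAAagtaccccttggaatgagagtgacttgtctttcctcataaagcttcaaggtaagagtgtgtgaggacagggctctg
Myh4: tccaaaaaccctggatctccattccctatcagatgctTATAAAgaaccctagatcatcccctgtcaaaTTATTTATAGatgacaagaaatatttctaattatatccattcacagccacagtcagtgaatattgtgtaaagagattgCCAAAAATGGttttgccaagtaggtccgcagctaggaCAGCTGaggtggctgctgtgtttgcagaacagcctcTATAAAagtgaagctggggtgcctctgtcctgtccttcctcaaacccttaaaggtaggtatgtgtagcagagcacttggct
Myh7: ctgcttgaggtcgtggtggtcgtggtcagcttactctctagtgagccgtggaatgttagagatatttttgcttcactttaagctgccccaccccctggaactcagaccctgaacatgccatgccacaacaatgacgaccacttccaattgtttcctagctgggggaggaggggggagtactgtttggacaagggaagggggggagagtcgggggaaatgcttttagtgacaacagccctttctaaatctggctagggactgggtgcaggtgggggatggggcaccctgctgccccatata
Tnnc1: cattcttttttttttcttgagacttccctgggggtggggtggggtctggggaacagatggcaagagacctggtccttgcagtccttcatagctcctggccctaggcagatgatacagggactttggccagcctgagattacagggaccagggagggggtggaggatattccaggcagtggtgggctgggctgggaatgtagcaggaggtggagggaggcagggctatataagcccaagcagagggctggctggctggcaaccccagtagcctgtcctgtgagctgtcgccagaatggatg
Casq2: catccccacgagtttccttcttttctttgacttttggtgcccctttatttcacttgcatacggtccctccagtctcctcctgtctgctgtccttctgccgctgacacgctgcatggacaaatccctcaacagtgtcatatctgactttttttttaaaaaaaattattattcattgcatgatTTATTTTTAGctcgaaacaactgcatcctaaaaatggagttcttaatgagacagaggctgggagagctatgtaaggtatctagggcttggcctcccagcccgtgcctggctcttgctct
In these windows Acta1 held CAGCTG, a CArG box and TATAAA, Ckm held CAGCTG, Myh1 held a MEF2 site and TATAAA, and Casq2 held a MEF2 site. Myh4 held all 4 kinds of motif, with TATAAA at 2 places. None of these 4 motifs was in the windows of Myh7 and Tnnc1, which held the wider E-box CANNTG.

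Across all 27025 promoters of the same length, CAGCTG was present in 16.1%, against 17 of the 33 member promoters (51.5%). The MEF2 site was present in 3.26% of all promoters and in 8 of 33 members (24.2%), namely Casq2, Myh1, Myh4, Myh8, Myoz2, Pgam2, Ttn and Xirp2. CArG boxes were present in 1.57% of all promoters and in those of Acta1, Myh4 and Myl3 (9.09%). TATAAA was found in 8.88% of all promoters and in 5 of 33 members (15.2%). The wider E-box CANNTG, which includes CAGCTG, was found in 72.1% of all promoters and in 29 of 33 members (87.9%). These matches are descriptions of the letters and not evidence of binding.

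In the hind paw, 1.91, 9.28 and 7.02% of the reads on genes fell on the 43 members in male libraries 1 to 3, with 4.76, 1.92 and 7.24% for female libraries 1 to 3. In DRG the shares were 0.812, 0.200 and 0.0308% in males and 0.0379, 0.0970 and 0.173% in females. Every hind paw library lay above every DRG library, and the sexes overlapped in both tissues. The mean share was 5.36% ± 3.03 (SD, n = 6) in the hind paw and 0.225% ± 0.296 in DRG, a ratio of 23.8. Within a tissue the highest share exceeded the lowest 4.86 times in the hind paw and 26.4 times in DRG. Male DRG library 1 stood apart, and without it the ratio of the hind paw mean to the DRG mean was 49.7. Without male hind paw library 2 it was 20.3, as it was without male DRG library 3. In bulk tissue, fewer muscle fibres and less RNA per fibre cannot be told apart.

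Ttn, which encodes titin, the giant protein that spans from the Z-disc to the M-line, had the largest part of these reads in every library. It held 60.4, 62.4 and 60.6% of the member reads in the male hind paw and 58.7, 60.6 and 61.2% in the female hind paw, against 56.3, 54.4 and 47.6% in male DRG and 45.1, 50.6 and 56.2% in female DRG. The share of Ttn was lower in every DRG library than in every hind paw library. With Ttn left out, a choice made after seeing the data, the 42 other members held 0.758, 3.49 and 2.77% of such reads in male and 1.97, 0.755 and 2.80% in female hind paw libraries, next to 0.355, 0.0909 and 0.0161% in male DRG and 0.0208, 0.0479 and 0.0759% in female DRG. The libraries kept their order between the tissues.

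**Figure D1:**
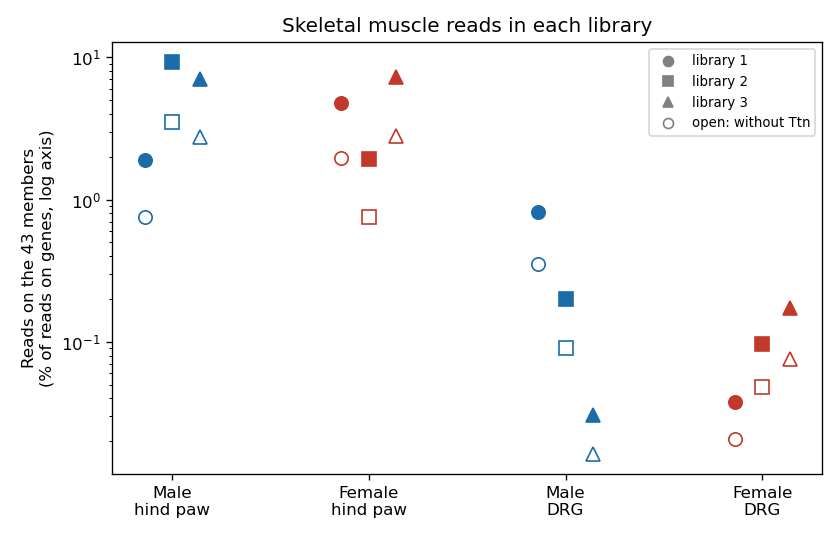
Share of the reads on genes that fell on the 43 members in each library, in percent on a log axis. Each symbol is a library, filled for all members and open without Ttn. The hind paw libraries lie between 1.91% and 9.28% and the DRG libraries between 0.0308% and 0.812%.

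Most members followed these shares from library to library. In the hind paw, 34 of 43 members were highest in male library 2, the library with the fewest reads on genes, and 26 were lowest in female library 2 and 17 in male library 1. That first place depends on the denominator: as a share of all listed reads, the members summed to 1.26% in male library 2, below 1.79% in male library 3 and 1.78% in female library 3. The exceptions at the top were Myl3, Tnni1, Tnnt1 and Tnnc1, highest in female library 3, Myh7 and Myl2, highest in female library 1, and Mybpc2, Actn2 and Myoz2, highest in male library 3. Of the 9 members not highest in male library 2, 7 are forms of slow fibres. In DRG, 37 members were highest in male library 1 and 28 were lowest in male library 3.

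Over the 6 DRG libraries, 28 members spanned more than 10 times from the lowest to the highest library. By contrast, Myh8, Tnni1, Myoz2, Casq2 and Jph1 spanned less than 3 times, 1.61, 1.89, 2.87, 2.38 and 2.40 times in that order. Tnnt1 had no read in male DRG library 2. Over the same 6 libraries, the log2 level of Mylpf had a Pearson r of 0.9985 with the summed other members, that of Ckm 0.989, that of Myh7 0.414 and that of Casq2 -0.0394 (n = 6, as descriptions). In the hind paw the same r was 0.992 for Mylpf, 0.989 for Ckm, 0.630 for Myh7 and 0.813 for Casq2.

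**Figure D2:**
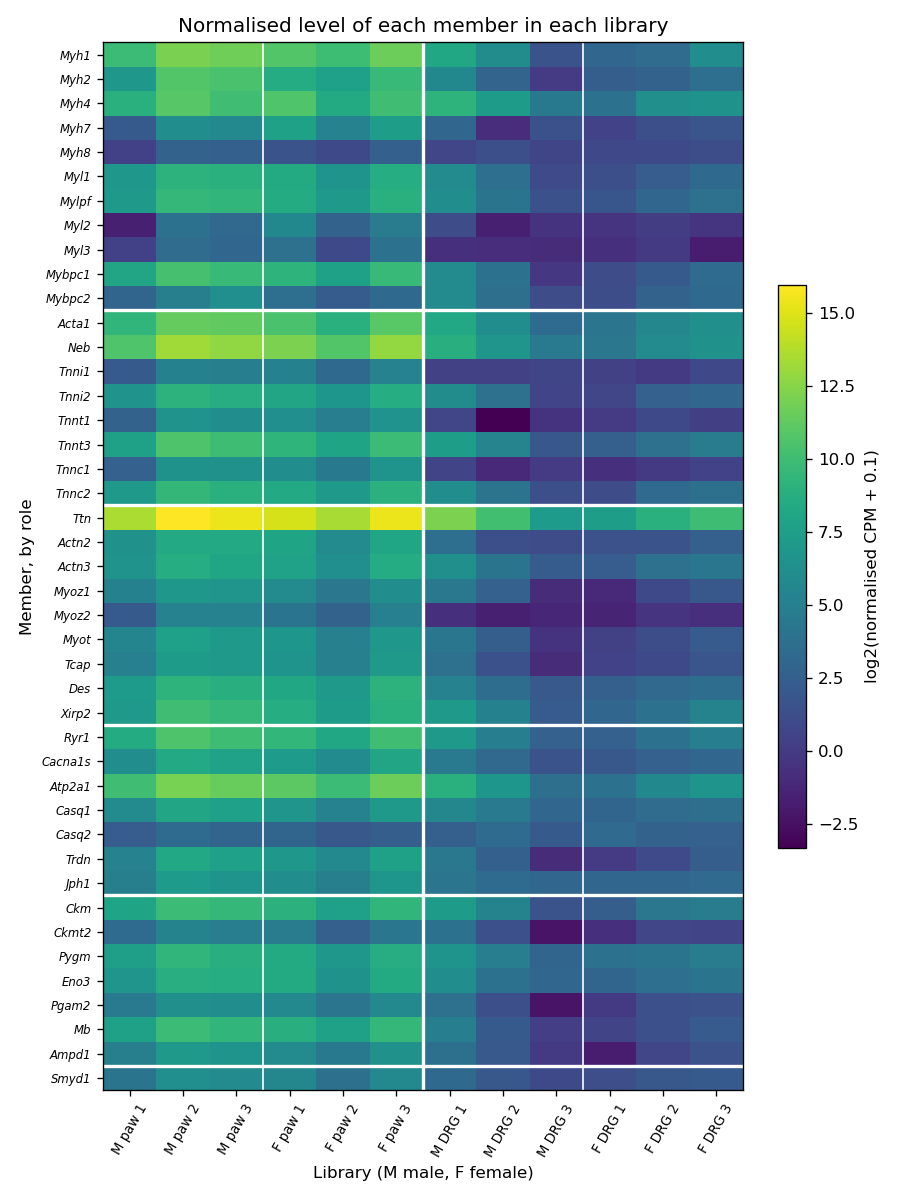
Level of each of the 43 members in each of the 12 libraries, as log2 of the normalised CPM plus 0.1, with members ordered by role and white lines between roles and groups. The scale is not divided by length, so genes are not to be ranked on it. The hind paw columns are brighter than the DRG columns, and Casq2 and Myh8 vary less across the DRG than most members.

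Hind paw and DRG were compared over all 12 libraries with the quasi-likelihood test of edgeR and Benjamini-Hochberg adjustment, with sex in the model. Of the 43 members, 41 were higher in the hind paw at an adjusted p below 0.05 and 0 were lower, while 42.6% of the 15666 genes tested were higher in the hind paw. All 43 passed the filter on low counts in this fit. Myl2, Myl3 and Myoz2 passed it only through the hind paw, since they did not pass within DRG. Their calls are therefore not independent of that filter. For 33 of the 43, every hind paw library lay above every DRG library, as it did for 34.8% of the genes tested. The median log2 fold change was 4.48 over the members and -0.002 over all genes tested, where a positive value means higher in the hind paw. The differences spanned from -0.14 for Casq2 to 6.52 for Mb, and the members outside the calls were Casq2 and Mybpc2. Without male DRG library 1, 41 members were called and the median was 5.25, and without male hind paw library 2, 40 were called and the median was 4.25.

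**Figure D3:**
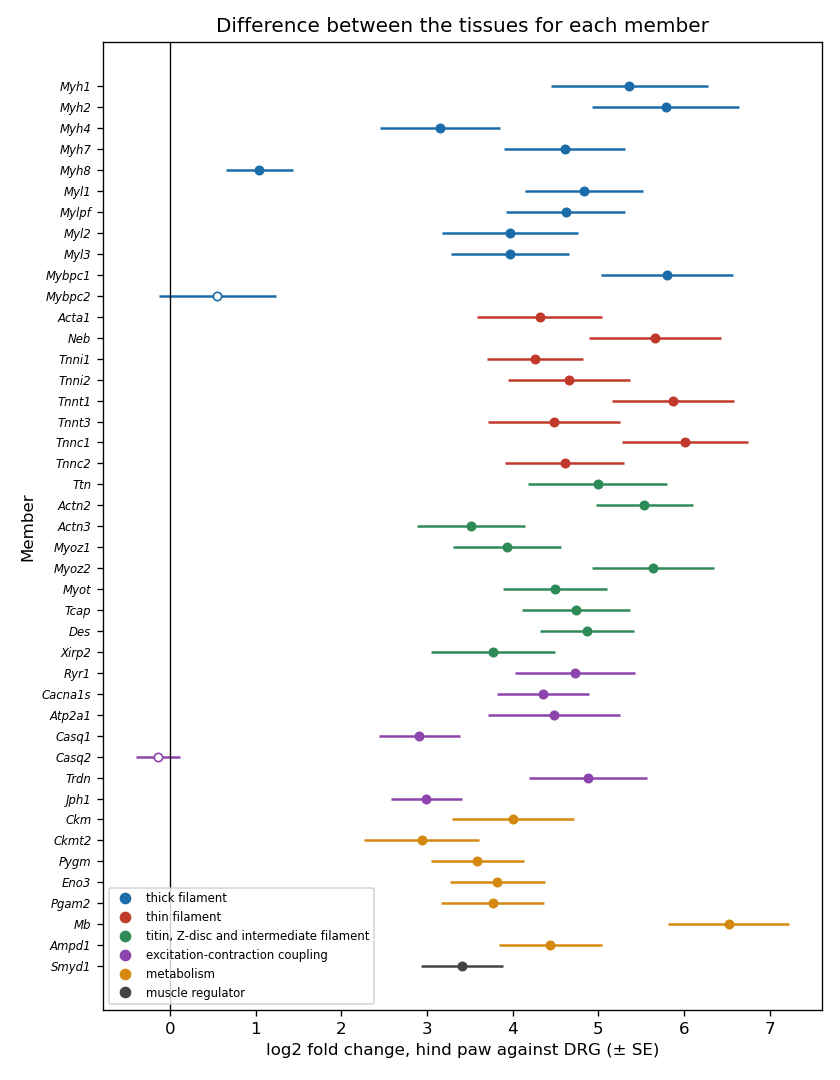
Log2 fold change of each member between hind paw and DRG with its standard error (n = 6 libraries per tissue), coloured by role. Filled points have an adjusted p below 0.05, and the open points are Mybpc2 at 0.55 and Casq2 at -0.14.

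Thick filament. The heavy chain Myh1, the myosin of type IIX fibres, stood at 908, 4279 and 3294 CPM in the male hind paw, 1726, 943 and 3209.5 in the female hind paw, 282, 64.3 and 3.02 in male DRG and 7.89, 10.7 and 65.9 in female DRG. Myh2 of type IIA fibres stood at 127, 1674 and 1380.4 CPM in the male hind paw, 380.3, 187 and 812 in the female hind paw, 52.0, 6.81 and 0.939 in male DRG and 4.96, 6.66 and 11.8 in female DRG. Both were higher in each hind paw library than in each DRG library. For Myh4 of type IIB fibres the levels were 490.4, 1869 and 1057 CPM in the male hind paw and 1636, 344 and 1031 in the female hind paw, with 551, 156 and 21.7 in male DRG and 14.2, 78.0 and 85.5 in female DRG. Here the tissues overlapped, since male DRG library 1 exceeded male hind paw library 1 and female hind paw library 2. By the quasi-likelihood test of edgeR with Benjamini-Hochberg adjustment, all 3 rose in the hind paw against DRG, Myh1 by 5.36 (standard error 0.92, adjusted p = 1.12e-04), Myh2 by 5.79 (standard error 0.86, adjusted p = 3.01e-05) and Myh4 by 3.15 (standard error 0.70, adjusted p = 9.56e-04) on the log2 scale.

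Myh7, the slow heavy chain, stood at 4.002, 65.4 and 54.2 CPM in the male hind paw, 198, 38.1 and 162 in the female hind paw, 7.83, 0.447 and 2.71 in male DRG and 1.28, 2.33 and 3.14 in female DRG. Female hind paw libraries 1 and 3 were highest, and male hind paw library 1 lay within the range of DRG. The perinatal heavy chain Myh8 stood at 1.13, 6.39 and 5.65 CPM in the male hind paw, 2.91, 1.85 and 5.53 in the female hind paw, 1.53, 2.35 and 1.46 in male DRG and 1.74, 1.85 and 2.16 in female DRG. Its DRG libraries were close together while the hind paw libraries spanned 5.65 times. With the quasi-likelihood test of edgeR and Benjamini-Hochberg adjustment, Myh7 differed by 4.61 (standard error 0.71, adjusted p = 4.22e-05) and Myh8 by 1.04 (standard error 0.39, adjusted p = 0.0244) on the log2 scale. The call of Myh8 was lost when male hind paw library 2 (log2 fold change 0.89), male hind paw library 3 (0.89), female hind paw library 3 (0.79), male DRG library 1 (0.98) or male DRG library 3 (0.98) was left out, with an adjusted p between 0.0509 and 0.0752 by the same edgeR test. Up to 26.9% of the 50-base words of a heavy chain transcript, and up to 11.2% of its 100-base words, also occur in another gene, most often another heavy chain. The sources differ on the read length, and reads from such stretches can be lost or misplaced.

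Mylpf, the fast regulatory light chain, had the highest RPKM of the thick filament in the hind paw, 458 ± 282 (SD, n = 6) against 21.9 ± 29.6 in DRG. Its levels were 128, 729 and 624 CPM in the male hind paw, 346, 132 and 471 in the female hind paw, 71.5, 17.3 and 2.61 in male DRG and 3.40, 8.19 and 13.4 in female DRG. Each hind paw library exceeded each DRG library. In DRG the highest RPKM of the thick filament belonged to Myh4, at 25.0 ± 33.5, about as high as Mylpf within their spread. The fast essential light chain Myl1 ran from 100.5 to 526 CPM in the hind paw and from 1.88 to 57.04 in DRG, the slow regulatory light chain Myl2 from 0.227 to 49.95 and from 0.223 to 1.996, and the slow essential light chain Myl3 from 1.13 to 15.2 and from 0.196 to 0.802. Myl2 had the widest span of any member in the hind paw, 220.5 times, and its lowest value, in male library 1, rested on 3 reads.

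The myosin binding proteins C, which tie myosin to titin and tune cross-bridge cycling, parted between the tissues. The fast form Mybpc2 stood at 7.25, 31.0 and 72.6 CPM in the male hind paw, 11.6, 4.46 and 9.22 in the female hind paw, 57.4, 12.5 and 1.98 in male DRG and 2.11, 6.42 and 9.22 in female DRG. Male DRG library 1 lay above 5 of the 6 hind paw libraries, and only male hind paw library 3 exceeded it. For the slow form Mybpc1, which fast fibres also express, levels were 254, 1231 and 794 CPM in the male hind paw, 561, 201 and 825 in the female hind paw, 57.3, 14.6 and 0.730 in male DRG and 2.02, 4.01 and 9.81 in female DRG. By the quasi-likelihood test of edgeR with Benjamini-Hochberg adjustment the difference between the tissues was 5.80 for Mybpc1 (standard error 0.77, adjusted p = 1.08e-05) and 0.55 for Mybpc2 (standard error 0.68, adjusted p = 0.456) on the log2 scale. Without male DRG library 1 the latter was 1.44, with an adjusted p of 0.0470 by the same edgeR test, and without male hind paw library 3 it was 0.05. Per length and with 0.5 added to each count, the ratio of Mybpc2 to Mybpc1 lay between 0.0141 and 0.115 in the hind paw and between 1.07 and 3.26 in DRG, with no overlap. This pair was chosen after its values were seen and its ratio was not tested.

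Thin filament. Skeletal actin, Acta1, stood at 631, 2649.5 and 2416 CPM in the male hind paw, 1379, 492 and 2002 in the female hind paw, 303, 69.9 and 9.91 in male DRG and 18.0, 49.6 and 77.6 in female DRG. All hind paw libraries lay above all DRG libraries, and male DRG library 1 was 30.6 times male DRG library 3. Its RPKM of 1103 ± 629.5 (SD, n = 6) in the hind paw was the highest mean of the 43 members, as was its 60.9 ± 75.2 in DRG. The log2 difference of Acta1 was 4.31 (standard error 0.73, adjusted p = 1.04e-04, the quasi-likelihood test of edgeR with Benjamini-Hochberg adjustment). Nebulin, Neb, which runs along the thin filament and sets its length, ranged from 1584 to 9712 CPM in the hind paw and from 19.7 to 456 in DRG.

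All 8 thin filament members were called higher in the hind paw, with log2 fold changes from 4.26 to 6.01. The troponin complex was represented by its inhibitory (Tnni), tropomyosin-binding (Tnnt) and calcium-binding (Tnnc) subunits. The fast forms Tnni2, Tnnt3 and Tnnc2 had mean levels of 199, 546 and 472 RPKM in the hind paw, and the slow forms Tnni1, Tnnt1 and Tnnc1 14.5, 28.2 and 57.6 RPKM. In DRG the fast forms had 10.3 ± 15.5, 30.8 ± 43.7 and 22.6 ± 29.8 RPKM (SD, n = 6). The slow forms had 0.748 ± 0.156, 0.458 ± 0.300 and 0.851 ± 0.384 RPKM there. Male DRG library 1 carried much of the fast means, with 61.95, 157.9 and 65.41 CPM. No other DRG library exceeded 13.63, 41.77 and 16.08 CPM. The slow forms were below 2 CPM in every DRG library, so that their values there rest on few reads. Tnnc2 overlaps Ube2c, with which it shares 55.0% of its 50-base and 25.6% of its 100-base words, and since the strand setting of the count is not stated, reads of overlapping or antisense transcripts cannot be told apart from its own.

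Titin, Z-disc and intermediate filaments. Ttn stood at 11733, 63608 and 43509.7 CPM in the male hind paw, 26964, 11174 and 43637 in the female hind paw, 4676, 1091 and 147 in male DRG and 162, 480.2 and 979 in female DRG. The tissues did not overlap, the DRG libraries spanned 31.8 times and the hind paw libraries 5.69 times. Per length Ttn remained the highest of its group, with 286 ± 176 RPKM (SD, n = 6) in the hind paw and 10.8 ± 14.7 in DRG, and the quasi-likelihood test of edgeR with Benjamini-Hochberg adjustment gave a log2 fold change of 4.99 (standard error 0.81, adjusted p = 6.96e-05). The 9 members of this group were all called higher in the hind paw.

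Of the alpha-actinins, which cross-link actin at the Z-disc, Actn2 of all fibres differed by 5.53 and Actn3 of fast fibres by 3.51 on the log2 scale. In the hind paw, Actn2 ran from 56.4 to 320.2 CPM and Actn3 from 72.7 to 388, and in DRG Actn2 ran from 1.98 to 11.9 and Actn3 from 4.49 to 76.8. Per length the ratio of Actn3 to Actn2 was 1.07 to 1.73 in the hind paw and 2.13 to 8.88 in DRG, a pair also chosen after its values were seen and not tested. The calsarcins, which link calcineurin to the Z-disc, showed the same order, with 3.93 for the fast form Myoz1 and 5.64 for the slow form Myoz2, although Myoz2 was below 1 CPM in every DRG library. Log2 fold changes were 4.49 for myotilin (Myot), 4.74 for the titin cap protein Tcap, 4.87 for desmin (Des), the intermediate filament of muscle, and 3.77 for Xirp2, an actin-binding protein.

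Excitation-contraction coupling. Atp2a1, the fast calcium pump of the sarcoplasmic reticulum, had 1072, 4052 and 2905 CPM in the male hind paw, 2176, 905 and 3221 in the female hind paw, 487, 113 and 12.4 in male DRG and 15.7, 50.7 and 99.5 in female DRG. It had the highest RPKM of its group in both tissues, 686 ± 356 (SD, n = 6) in the hind paw and 37.2 ± 51.6 in DRG, with no overlap between the libraries of the tissues. The calcium release channel Ryr1 differed by 4.73, the voltage sensor Cacna1s by 4.35 and triadin (Trdn), which anchors calsequestrin at the release channel, by 4.88 on the log2 scale. All 3 were called.

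The calsequestrins, which store calcium in the sarcoplasmic reticulum, differed in their pattern. Casq1 of fast fibres ran from 37.6 to 252 CPM in the hind paw and from 7.16 to 48.2 in DRG, a log2 difference of 2.91. Casq2 of slow fibres and heart stood at 4.68, 9.91 and 7.21 CPM in the male hind paw, 7.22, 3.71 and 4.98 in the female hind paw, 5.30, 9.94 and 4.17 in male DRG and 9.45, 6.10 and 5.79 in female DRG. The tissues overlapped throughout, and by the quasi-likelihood test of edgeR with Benjamini-Hochberg adjustment the log2 fold change came to -0.14 (standard error 0.26, adjusted p = 0.611). Without male DRG library 2 its sign turned, to 0.07. Junctophilin 1, Jph1, which holds the membranes of the triad together, had 18.0, 9.94 and 7.72 CPM in male DRG and 7.53, 8.03 and 9.71 in female DRG, a span of 2.40 times, beside 30.0 to 146 in the hind paw. Its difference between the tissues was 2.99 on the log2 scale.

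Metabolism and regulation. Muscle creatine kinase, Ckm, which rebuilds ATP from phosphocreatine, stood at 249, 922.2 and 744 CPM in the male hind paw, 504, 190.4 and 636 in the female hind paw, 152, 39.1 and 2.92 in male DRG and 5.05, 19.6 and 26.1 in female DRG. Myoglobin, Mb, the oxygen store of oxidative fibres, stood at 197, 927 and 639 CPM in the male hind paw, 467, 195 and 728 in the female hind paw, 28.3, 4.02 and 1.04 in male DRG and 1.38, 2.49 and 4.41 in female DRG. For both, every hind paw library was above every DRG library. By the quasi-likelihood test of edgeR with Benjamini-Hochberg adjustment, Ckm rose by 4.003 (standard error 0.71, adjusted p = 1.60e-04) and Mb by 6.52 (standard error 0.71, adjusted p = 1.45e-06) on the log2 scale, the latter the largest value among the members. Without male DRG library 1 the log2 fold change was 4.82 for Ckm and 7.63 for Mb. In the hind paw their RPKM were alike within the spread, 382 ± 201 for Ckm and 419.8 ± 236 for Mb (SD, n = 6). The ratio of Mb to Ckm per length was 0.895 to 1.29 in the hind paw and 0.118 to 0.416 in DRG, without overlap, for a pair chosen after its values were seen and not tested. Ckm shares 22.8% of its 50-base words and 12.2% of its 100-base words with A930016O22Rik.

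The other metabolic members had smaller differences than Mb and were all called higher in the hind paw. Log2 fold changes were 3.59 for glycogen phosphorylase (Pygm), 3.82 for the muscle enolase Eno3, 3.77 for phosphoglycerate mutase (Pgam2), 4.44 for AMP deaminase (Ampd1) and 2.94 for the mitochondrial creatine kinase Ckmt2. Smyd1, a methyltransferase needed for myosin assembly, had 16.9, 73.5 and 56.9 CPM in the male hind paw, 49.2, 13.1 and 53.8 in the female hind paw, 8.98, 3.57 and 1.77 in male DRG and 2.20, 3.69 and 4.02 in female DRG. The tissues did not overlap, and the quasi-likelihood test of edgeR with Benjamini-Hochberg adjustment gave 3.41 (standard error 0.48, adjusted p = 2.02e-05) on the log2 scale.

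Fibre type balance was described by the share of each heavy chain gene in the summed RPKM of the 5 heavy chain members. Myh1 led in the hind paw, with 59.0, 54.9 and 58.0% in males and 43.9, 62.9 and 62.4% in females, against 30.8, 27.2 and 10.3% in male DRG and 27.1, 10.5 and 38.8% in female DRG. Myh4 had 33.5, 25.3 and 19.6% in the male hind paw and 43.8, 24.1 and 21.1% in the female hind paw, against 63.4, 69.6 and 77.4% in male DRG and 51.3, 81.0 and 53.0% in female DRG. Neither range overlapped between the tissues: Myh1 was the leading heavy chain in all 6 hind paw libraries, closely followed by Myh4 in female library 1, and Myh4 led in all 6 DRG libraries. The means were 56.9% ± 7.001 (SD, n = 6) for Myh1 and 27.9% ± 9.16 for Myh4 in the hind paw, and 24.1% ± 11.5 and 65.9% ± 12.3 in DRG. These shares were not tested. Per length, the ratio of Myh4 to Myh1 was 0.338 to 0.998 in the hind paw and 1.37 to 7.67 in DRG, without overlap. Other pairs overlapped between the tissues, Myh2 to Myh1 with 0.124 to 0.373 and 0.0950 to 0.561, and Myh4 to Myh2 with 0.905 to 5.09 and 3.37 to 26.9. These 3 pairs too were chosen after their values were seen and were not tested.

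Myh2 held 13.6% ± 5.76 (SD, n = 6) in the hind paw and 6.27% ± 4.60 in DRG, where female library 1 reached 15.1%. Slow Myh7 held 0.192, 0.621 and 0.706% in the male hind paw and 3.72, 1.88 and 2.33% in the female hind paw, so that every female hind paw library lay above every male one. In DRG the Myh7 share was 0.633, 0.140 and 6.81% in males and 3.26, 1.70 and 1.37% in females, with the females inside the range of the males. These DRG shares rest on few Myh7 reads, 102, 4 and 26 in males and 14, 29 and 32 in females. Myh8 held 0.0504% ± 0.0109 in the hind paw and 1.37% ± 1.27 in DRG, and its DRG share was highest in male library 3 and female library 1, the libraries with the fewest member reads. With the length of the longest transcript in place of the exon union, the Myh8 means were 0.0912% and 2.46%.

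**Figure D4:**
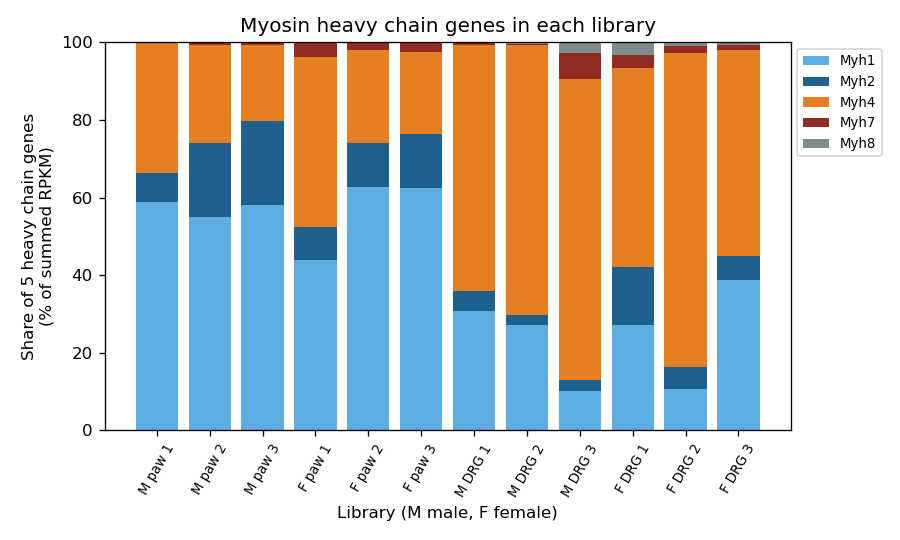
Share of each of 5 myosin heavy chain genes in their summed RPKM, in percent, for each library. Myh1 makes up 43.9% to 62.9% of each hind paw bar and 10.3% to 38.8% of each DRG bar, and Myh4 makes up 19.6% to 43.8% and 51.3% to 81.0%.

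In sums over lists, the 13 fast fibre members had 3476, 16638 and 12239 CPM in the male hind paw, 8179, 3232 and 11508 in the female hind paw, 1989, 499.5 and 64.6 in male DRG and 71.8, 221 and 377 in female DRG. The 8 slow fibre members had 30.6, 353 and 297 CPM in the male hind paw, 461, 115 and 474 in the female hind paw, 20.3, 12.8 and 11.3 in male DRG and 14.9, 14.4 and 14.3 in female DRG. Across the DRG libraries the fast sum spanned 30.8 times and the slow sum 1.81 times, and in the hind paw the spans were 5.15 and 15.5 times. The slow span in DRG depended on Casq2: without it, a choice made after seeing the data, the other 7 slow members summed to 15.0, 2.90 and 7.09 CPM in male DRG and 5.42, 8.35 and 8.53 in female DRG, a span of 5.18 times. Casq2 had the highest RPKM of the slow members in DRG, and Tnnc1 had the highest in the hind paw. Against DRG, 12 of the 13 fast and 7 of the 8 slow members were called higher in the hind paw.

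Ratios of fast to slow paralogs were compared on the log2 scale, per length and with 0.5 added to each count. Against DRG the hind paw ratio differed by -0.94 for Myh4 to Myh7, 1.32 for Tnni2 to Tnni1, -1.08 for Tnnt3 to Tnnt1 and -0.57 for Tnnc2 to Tnnc1. In 2-sided exact permutation tests of 6 against 6 libraries, p was 0.372, 0.180, 0.444 and 0.478, and 0.478 for each after Benjamini-Hochberg adjustment over the 4 ratios. The DRG values spread widely, with an SD of 1.93, 2.09, 2.85 and 1.75 against 1.58, 0.54, 0.74 and 0.83 in the hind paw, and the slow forms had few reads in DRG. There the Pearson r with the summed other members was 0.993, 0.996 and 0.992 for Tnni2, Tnnt3 and Tnnc2. For Tnni1, Tnnt1 and Tnnc1 it was -0.04, 0.06 and 0.35 (n = 6, as descriptions). A DRG ratio can thus shift with the amount of member reads and is not a measure of fibre type alone. No difference between the tissues in these ratios was larger than the SD in DRG. With 1 library left out, the difference for Myh4 to Myh7 ran from -1.50 (without male hind paw library 1) to -0.31 (male DRG library 2) and that for Tnni2 to Tnni1 from 0.83 (male DRG library 3) to 1.97 (male DRG library 1). The difference for Tnnt3 to Tnnt1 ran from -1.54 (female DRG library 1) to -0.12 (male DRG library 2) and that for Tnnc2 to Tnnc1 from -1.002 (male DRG library 3) to -0.16 (male DRG library 1).

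Within the hind paw, the log2 ratio of Myh4 to Myh7 was 7.43, 5.34 and 4.79 in males and 3.56, 3.68 and 3.18 in females. That of Tnni2 to Tnni1 was 4.70, 4.16 and 3.93 in males and 3.12, 3.82 and 3.52 in females, and that of Tnnt3 to Tnnt1 was 5.69, 4.67 and 4.48 in males and 3.72, 3.81 and 3.93 in females. For these 3 ratios every female library lay below every male library. Tnnc2 to Tnnc1 had 4.87, 3.40 and 2.98 in males and 2.63, 2.99 and 2.71 in females, where the sexes overlapped by a small margin. Females minus males, the means differed by -2.39, -0.78, -1.12 and -0.97. The 2-sided exact permutation p was 0.1 for the first 3, the smallest that 3 against 3 libraries can give, and 0.2 for the last, or 0.133 and 0.2 after adjustment over the 4 ratios, so that this design could not pass 0.05. Without male hind paw library 1 the differences shrank to -1.60, -0.56, -0.75 and -0.41. The largest were -2.92, -1.36 and -1.35 without male library 3 for Myh4 to Myh7, Tnnt3 to Tnnt1 and Tnnc2 to Tnnc1, and -0.94 without female library 2 for Tnni2 to Tnni1.

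In DRG the same 4 ratios differed between females and males by -1.39, -1.22, -2.94 and -1.25, with exact permutation p of 0.5, 0.5, 0.3 and 0.4, and 0.5 for each after Benjamini-Hochberg adjustment. The sexes overlapped in all 4 ratios, with male DRG library 3 among the lowest values and male DRG library 1 or 2 the highest. Without male DRG library 1 the difference for Tnni2 to Tnni1 turned to 0.10 and that for Tnnc2 to Tnnc1 was -0.52, and without male DRG library 2 Myh4 to Myh7 was -0.15 and Tnnt3 to Tnnt1 -1.28. All 4 grew without male DRG library 3, to -2.80, -2.76, -4.81 and -2.63. Whether the sexes differ more in the hind paw than in DRG was not tested for these ratios.

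**Figure D5:**
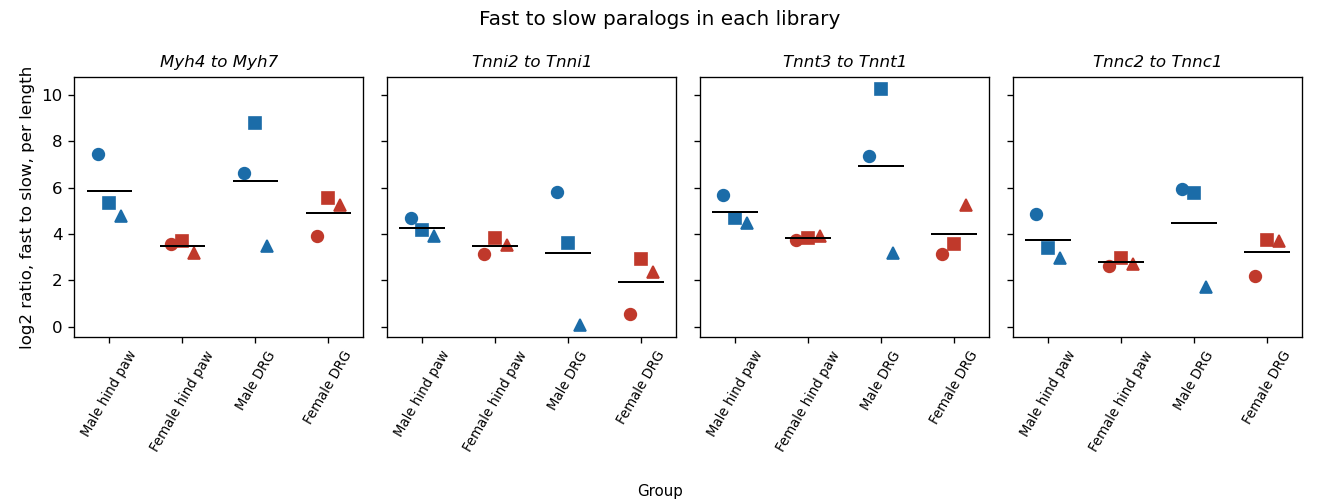
Log2 ratio of the fast to the slow paralog, per length, in each library, with the mean of each group of 3 as a line. Female hind paw libraries lie close together, from 3.18 to 3.68 for Myh4 to Myh7, below the male hind paw libraries at 4.79 to 7.43, while the DRG libraries spread over 0.09 to 5.80 for Tnni2 to Tnni1.

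Females and males were then compared for each member within the hind paw. By the quasi-likelihood test of edgeR with Benjamini-Hochberg adjustment, 0 of 43 members were called, beside 0.154% of the 14316 genes tested, and 1 member, Mybpc2, had an unadjusted p below 0.05 (2.33% of members, beside 9.74% of all genes). DESeq2 also called 0 members. Without male hind paw library 1, 8 of 43 members (18.6%) had an unadjusted p below 0.05 by edgeR, beside 10.8% of genes, and 0 were called. Log2 fold changes, where a positive value means higher in females, were negative for 37 members and positive for 6, with a median of -0.41 over the members and -0.006 over all genes tested. No member had all female libraries above all male libraries, as 6.64% of genes did, and none had all male above all female, as 8.54% of genes did. The median rested on single libraries: it was 0.03 without male hind paw library 2, -0.87 without male library 1, -0.06 without female library 2 and -0.87 without female library 3.

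The 6 positive values in the hind paw belonged to slow fibre members, 6 of 8 in that list. They were Myl2 (1.87), Myh7 (1.72), Myl3 (0.73), Tnni1 (0.27), Tnnt1 (0.22) and Tnnc1 (0.17) on the log2 scale, and Casq2 (-0.40) and Myoz2 (-0.48) were negative. All 13 fast fibre members had negative values, from -2.13 for Mybpc2 to -0.17 for Myh4. By the quasi-likelihood test of edgeR with Benjamini-Hochberg adjustment, Myh7 had a standard error of 0.88 and an adjusted p of 0.594, and Mybpc2 a standard error of 0.74 and an adjusted p of 0.397. Neither passed the threshold. These signs also depended on single libraries. Without male hind paw library 1 the slow troponins turned to -0.26 (Tnni1), -0.33 (Tnnt1) and -0.38 (Tnnc1), and without female hind paw library 3 to -0.08, -0.15 and -0.33. Without male hind paw library 2 the fast members Myh4 (0.39), Actn3 (0.28), Atp2a1 (0.09), Tnnc2 (0.07) and Tnni2 (0.01) turned positive, as did Myh4 (0.24), Actn3 (0.24) and Atp2a1 (0.03) without female hind paw library 2. Myh7 (1.16 to 2.20), Myl2 (1.06 to 2.68) and Myl3 (0.17 to 1.25) stayed positive with any 1 library left out. The values nearest 0 were those without male library 3 for Mybpc2 (-1.12), without female library 1 for Myl2 (1.06) and without male library 1 for Myl3 (0.17).

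Within DRG, 40 of the 43 members passed the filter on low counts, and Myl2, Myl3 and Myoz2 did not. By the quasi-likelihood test of edgeR with Benjamini-Hochberg adjustment 0 of the 40 were called, beside 0.0484% of the 14456 genes tested, 3 had an unadjusted p below 0.05 (Casq1, Myl1 and Tnni2), beside 6.01% of all genes, and DESeq2 called 0. That count of 3 depended on the fit: it was 17 of 43 (39.5%) without the filter on low counts, beside 5.90% of genes, and 0 of 40 with DESeq2 and with the replicate block. Casq1 had a log2 fold change of -1.38 (standard error 0.53), Myl1 -2.16 (0.93) and Tnni2 -2.35 (0.99), each with an adjusted p of 0.743 in the same edgeR test. Of the 40, 37 were lower in females and 3 higher, with a median of -1.62 beside 0.001 over all genes. No tested member separated the sexes without overlap, whether females were above (4.88% of genes) or males were above (7.42%). Without male DRG library 1 the median was -0.10, with 17 values above 0 and 22 below among 39 members tested. The same omission brought Casq1 to -0.57, Myl1 to -0.33 and Tnni2 to -0.54. With male DRG library 3 left out instead the median was -2.15 and 33 of 40 members had an unadjusted p below 0.05, beside 5.60% of all genes in that fit, with 0 called by edgeR or, on all 6 libraries, by DESeq2.

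The interaction of sex and tissue, which asks whether the sex difference differs between hind paw and DRG, was tested over the 12 libraries. With the quasi-likelihood test of edgeR and Benjamini-Hochberg adjustment 0 of 43 members were called, beside 0.0128% of the 15666 genes tested, 0 had an unadjusted p below 0.05 (7.76% of all genes did), and DESeq2 called 0. The median log2 interaction was 1.27 over the members, with 38 values above 0, and -0.32 with 7 above 0 when male DRG library 1 was left out. The lowest adjusted p of a member in this edgeR test was 0.722, for Myh7 (log2 interaction 2.55, standard error 1.47). Without male DRG library 1 that value was 1.25.

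Of 40 further skeletal muscle genes outside the members, 38 were called higher and 2 lower in the hind paw against DRG. Their summed level was 2187, 9276 and 7051 CPM in the male hind paw, 4995, 2172 and 7428 in the female hind paw, 1888, 1216 and 1161 in male DRG and 983, 1187 and 1286 in female DRG. The tropomyosins Tpm2 and Tpm1, which lie along actin, had the highest RPKM of this list in the hind paw, 233 and 138. The genes lower in the hind paw were Eef1a2, an elongation factor, and Pln, phospholamban. Eef1a2, with the highest RPKM of the list in DRG, stood at 655, 559.6 and 636 CPM in male DRG and 486, 603 and 622 in female DRG, the largest part of the sum there. Sarcolipin, Sln, had 0 reads in every DRG library.

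Among the genes outside the members that were most like their sum over the 6 hind paw libraries were Lrtm1, Tpm2, Tpm1, Txlnb, Fsd1l, Pde4dip, Mfn2, Cmya5 and Tmod4, with Pearson r of log2 CPM from 0.9969 to 0.9995 (n = 6, as a description of these libraries), and from 0.9816 to 0.9997 without the 2 libraries farthest from the median (n = 4). Mfn2, which fuses mitochondria, was higher in every DRG library (201 to 262 CPM) than in every hind paw library (83.7 to 159.6 CPM).

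Of the myogenic factors and stem cell markers, Myod1, Myog, Myf6, Pax7 and Mef2c were called higher in the hind paw. Myog, the factor of differentiating muscle cells, had 1.66, 22.2 and 8.85 CPM in the male hind paw and 2.82, 3.12 and 37.7 in the female hind paw, so that male library 2 and female library 3 were highest, and no more than 1 read in any DRG library. Pax7 of the muscle stem cells stood at 2.57, 3.52 and 3.36 CPM in males and 3.35, 4.13 and 4.70 in females of the hind paw.

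Of 9 tested genes of the muscle acetylcholine receptor and synapse, Chrna1, Chrnb1, Chrnd, Chrne, Musk and Lrp4 were called higher in the hind paw and Rapsn lower, and Dok7 and Colq were not called. The sum of the list of 10 was 274, 326 and 288 CPM in the male hind paw, 269, 277 and 408 in the female hind paw, 77.8, 81.9 and 78.0 in male DRG and 92.2, 79.0 and 75.4 in female DRG, led by Lrp4 in both tissues. The receptor subunit Chrna1 had 8.31, 45.7 and 26.9 CPM in the male hind paw and 14.7, 9.77 and 51.4 in the female hind paw, highest in female library 3 and male library 2, and below 1 CPM in every DRG library.

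Other contractile tissues were followed by their own lists. The 8 heart muscle genes summed to 12.2, 27.0 and 22.6 CPM in the male hind paw, 14.8, 9.18 and 23.0 in the female hind paw, 7.45, 3.13 and 6.57 in male DRG and 5.69, 5.78 and 7.55 in female DRG. Per length, Tnnt2 led that list in the hind paw and Nppb in DRG, Nppa had 0 reads in every hind paw library and Myh6 had 0 reads in every DRG library. Against DRG, 4 of 6 tested heart genes were called higher in the hind paw and 1 lower. The 8 smooth muscle genes, led by Acta2 in the hind paw and Smtn in DRG, summed to 1022, 964 and 778 CPM in the male hind paw, 851, 779 and 653 in the female hind paw, 275, 308 and 298 in male DRG and 309, 331 and 315 in female DRG, with 7 called higher and 1 lower in the hind paw. The summed CPM of the smooth muscle genes spanned 1.57 times within the hind paw, beside 5.15 times for the summed CPM of the fast fibre members. The share of the members, a percent of the reads on genes, spanned 4.86 times.

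The 7 tendon and cartilage genes, led by Thbs4 in both tissues, summed to 947, 1172 and 948 CPM in the male hind paw, 1029, 807 and 868 in the female hind paw, 80.2, 129.5 and 76.3 in male DRG and 174, 105 and 77.4 in female DRG, with 5 called higher and 1 lower in the hind paw. The 6 adipocyte genes, led by Fabp4 per length in both tissues, summed to 143, 124 and 129.8 CPM in the male hind paw, 138, 143 and 82.0 in the female hind paw, 51.4, 49.8 and 43.3 in male DRG and 262, 36.8 and 65.0 in female DRG, with 3 called higher and 0 lower in the hind paw. In DRG the adipocyte genes were highest in female library 1, a library with few member reads, and not in male library 1.

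Markers of the labelled tissues followed the labels. All 12 sensory neuron genes were called lower in the hind paw, and all 8 epidermal genes were called higher. The neuron genes, led by Uchl1 per length in DRG, summed to 14382, 13048 and 13808 CPM in male DRG and 10252, 12367 and 12895 in female DRG, and to 30.5 to 61.7 in the hind paw. The epidermal genes, led by Krt10, summed to 84768, 82437 and 75818 CPM in the male hind paw and 66176, 75374 and 58560.3 in the female hind paw, and to 33.3 to 120 in DRG. Between the DRG libraries the summed CPM of the neuron genes varied 1.40 times, while that of the fast fibre members varied 30.8 times. The share of the members, a percent of the reads on genes, varied 26.4 times. The part of dissection in the level of the members was not tested.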

How the data were processed

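RNA-seq of whole DRG and hind paw gave 12 libraries. By the submitters' processing notes the authors used TopHat2 for alignment to mm9 and HTSeq for the count of reads on each gene, and what was deposited is an unnormalised count for each of 22609 symbols. The strand setting, the annotation and the versions are not given in the sources used here, and labels and methods differ on the library kit and read length. In each library 71.9% to 86.4% of the listed reads were not on a gene, and these 5 categories were left out of library sizes and tests.

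Counts were tested with edgeR 4.0.16 in R 4.3.3 (glmQLFTest, median-of-ratios factors, at least 10 counts in at least 3 libraries of the fit, Benjamini-Hochberg adjustment over all genes tested). Sex was fitted within each tissue, tissue over 12 libraries with sex as a term, and the interaction over 12 libraries. Standard errors were derived from the log2 fold change and its F statistic. The procedure was tested on simulated counts with 200 changed genes. Paralog ratios were compared with exact permutation tests in scipy 1.17.1. Lengths are exon unions of the GENCODE annotation of NCBIM37 (mm9), available for 21627 symbols, and promoters and motifs come from RefSeq. A count of 3 reads, the smallest taken as detectable, is 2.23e-05% to 4.37e-05% of the reads on genes, for counting error only.

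Every member was described by role. Values in every library were given for Myh1, Myh2, Myh4, Myh7, Myh8, Acta1, Ckm, Ttn and the member of each role with the highest mean RPKM in the hind paw. Further genes were chosen after their values were seen. Of these, Mybpc1, Mybpc2 and Casq2 were given in every library. Jph1 and Eef1a2 were given in every DRG library, and Myog, Pax7 and Chrna1 in every hind paw library. The members and lists were chosen with earlier results of these data known. Alternatives were DESeq2 1.42.0, TMM factors, no filter, the replicate block, all 12 libraries in a single fit for sex, all listed reads as denominator, the longest transcript as length, a pseudocount of 1, and leaving out each library. Leaving out Ttn, or Casq2 from the slow sum, was added after seeing the data.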

Additional observations from a re-analysis of the deposited data

Results flagged for a closer look

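Among the 6 libraries of a tissue, a value was singled out when its gap to the nearest other library, divided by the whole range, exceeded Dixon's critical value at 95%. The sets were the member share, the sums of 5 roles and of the fast and slow members, the heavy chain shares and the 4 paralog ratios, in each tissue. Of 34 sets of 6 libraries examined, 9 held such a value. Chance gives about 1 in 20 for normally distributed values, and sets that share genes are not independent. Shares and sums were examined without logarithms, and a log scale, on which their gaps differ, was not examined. In DRG, 7 of the 9 belonged to male library 1. The share of reads on the members was 0.812% there and 0.0308% to 0.1996% in the other DRG libraries. The summed normalised CPM was 1140.5 for the thick filament (38.1 to 287 in the others), 1049 for the thin filament (44.1 to 250.2), 4985 for titin, the Z-disc and intermediate filaments (164 to 1169), 737 for excitation-contraction coupling (41.1 to 199), 389 for metabolism (20.4 to 95.1) and 1989 for the fast fibre members (64.6 to 500). In female DRG library 1 the share of Myh2 among 5 heavy chain genes was 15.1%, against 2.56% to 6.17% in the other DRG libraries. In male hind paw library 1 the log2 ratio of Tnnc2 to Tnnc1 was 4.87, against 2.63 to 3.40 in the other hind paw libraries.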

How the results depend on the processing

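The number of members called was 41 between the tissues, 40 to 41 over fits that lacked 1 library and 41 in the other fits, and 0 for sex and for the interaction in every fit. The number of all genes called was less stable. For sex in the hind paw it was 22, against 208 with DESeq2, 40 without a filter on low counts, 88 with all 12 libraries in a single fit, 8 with the replicate block and 1 to 8 when each library was left out. For sex in DRG it was 7, against 15 with DESeq2, 5 with the replicate block and 1 to 6 with each library left out, and for the interaction 2, against 36 with DESeq2, 4 without the filter, 0 with the replicate block and 0 to 4 with each library left out. The causes were not tested. Whether same-numbered libraries of different tissues share a mouse is not stated, and the libraries were tested as unpaired. Correlations of the deviations of same-numbered libraries, between sexes and between tissues, ran from -0.40 to 0.32. They cannot decide this, since the sexes are different mice and 1 mouse need not deviate alike in different tissues. The block moved no member across the threshold. Leaving out each library in turn, an alternative added after seeing the data for the shares, moved the ratio of the mean member share in the hind paw to that in DRG, 23.8, over 20.3 to 49.7, and with all listed reads as the denominator the hind paw mean was 1.155% in place of 5.36%, since most listed reads are not on genes. Signs turned in some fits with a library left out: the median member log2 fold change for sex in the hind paw ran from -0.8702 to 0.02647, the median interaction from -0.32 to 1.78, Casq2 between the tissues from -0.28 to 0.06625 and between the sexes in DRG from -0.10 to 0.61, the interaction of Ckm from -0.22 to 1.98, and the sex difference of the log2 ratio of Tnni2 to Tnni1 in DRG from -2.76 to 0.10. Likewise, the sex difference in the hind paw ran from -0.72 to 0.39 for Myh4, -0.92 to 0.007254 for Tnni2, -0.93 to 0.07247 for Tnnc2, -0.77 to 0.28 for Actn3, -0.79 to 0.09337 for Atp2a1, -0.26 to 0.69 for Tnni1, -0.33 to 0.76 for Tnnt1 and -0.38 to 0.59 for Tnnc1. Of 1017 single-gene values under alternatives, 993 kept direction and side of the threshold. Male DRG library 3 had 14 members under 10 reads, 5 of them slow fibre members.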
